A study of Homo sapiens with 6 samples.

Results

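Long non-coding RNAs (lncRNAs) start at open chromatin much as protein-coding genes do, and the open regions examined here are those at lncRNA start sites that lie away from any protein-coding start site. Overlapping peaks (by 1 bp or more) of 6 Omni-ATAC lists were joined into regions, and the regions were chosen by their peak calls and their position. A region was kept when it was called in 2 or 3 libraries of either group, and it counted as an lncRNA start region if it overlapped the 1000 bp on either side of a transcription start site (TSS) of a GENCODE release 44 lncRNA gene and came no nearer than that to the TSS of any protein-coding gene. This left 2807 regions of 70969 reproducible ones, beside 17482 protein-coding promoter regions and 50680 distal regions near neither kind of TSS.

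The cells were MM.1S, an established human multiple myeloma line, and all 6 libraries came from this 1 line. The treated group received 120 nM CB-6644, an inhibitor of the ATPases RUVBL1 and RUVBL2, for 72 h, and the control group received the DMSO vehicle. Complexes that remodel chromatin, among them INO80, contain RUVBL1 and RUVBL2, and the question is which open regions changed once these were inhibited. Live cells were sorted by flow cytometry before exposure to the transposase, and each group had 3 libraries. No label says that replicates were separate cultures, so a p-value measures the spread between these libraries, which may be technical.

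LncRNAs are transcribed by RNA polymerase II, are often spliced and polyadenylated, and carry no long open reading frame. Some act in the nucleus as scaffolds or as silencers of a neighbouring gene or a whole chromosome, some are processed into microRNAs or small nucleolar RNAs (snoRNAs), and for most no function is known. An open start region shows that the transposase could reach the DNA there, and it does not show that the RNA was made.

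Several sequences are shown to give the letters at regions named in the text, and no call or test used them. They are the 201 bases centred on the strongest summit of a region, on the plus strand of hg38 and 5′ to 3′. Capitals mark matches, on either strand, to a short consensus. The first 3 lie in regions that were less open after CB-6644 and the next 2 in regions that were more open. ENSG00000225647 was called in DMSO only and ENSG00000288597 in CB-6644 only. The last pair comes from NEAT1, from a region near the start of the gene that was called in all 6 libraries and from one inside the gene that was called in DMSO only, whose summit lies 818 bp from the nearest annotated transcript start.
LINC00511, chr17:72466307-72466507: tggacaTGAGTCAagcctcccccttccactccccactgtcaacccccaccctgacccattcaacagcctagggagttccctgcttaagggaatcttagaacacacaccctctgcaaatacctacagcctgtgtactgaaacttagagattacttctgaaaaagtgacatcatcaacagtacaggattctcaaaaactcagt
ENSG00000254919, chr11:35917792-35917992: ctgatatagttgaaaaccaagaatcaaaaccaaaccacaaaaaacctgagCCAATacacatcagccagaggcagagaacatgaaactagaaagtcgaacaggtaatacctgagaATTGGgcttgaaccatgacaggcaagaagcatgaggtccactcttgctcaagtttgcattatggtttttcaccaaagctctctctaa
ENSG00000230470, chr1:184407868-184408068: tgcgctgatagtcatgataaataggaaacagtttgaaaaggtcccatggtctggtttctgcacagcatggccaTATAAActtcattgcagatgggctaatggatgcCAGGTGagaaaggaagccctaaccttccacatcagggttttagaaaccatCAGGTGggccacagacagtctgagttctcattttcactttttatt
ERC2-IT1, chr3:55658812-55659012: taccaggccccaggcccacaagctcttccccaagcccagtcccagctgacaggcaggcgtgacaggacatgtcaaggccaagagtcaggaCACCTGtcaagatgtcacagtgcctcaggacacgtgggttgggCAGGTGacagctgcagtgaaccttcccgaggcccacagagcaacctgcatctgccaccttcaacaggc
LINC00635, chr3:107848604-107848804: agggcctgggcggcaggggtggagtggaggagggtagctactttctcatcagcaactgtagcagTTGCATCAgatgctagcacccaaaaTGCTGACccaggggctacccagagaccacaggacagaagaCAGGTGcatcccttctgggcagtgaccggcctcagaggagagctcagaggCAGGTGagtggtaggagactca
ENSG00000225647, chr7:108605920-108606120: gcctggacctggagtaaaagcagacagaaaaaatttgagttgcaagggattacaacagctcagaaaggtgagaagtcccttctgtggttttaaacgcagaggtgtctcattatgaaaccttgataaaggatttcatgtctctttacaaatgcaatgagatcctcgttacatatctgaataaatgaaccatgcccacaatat
ENSG00000288597, chrX:103769214-103769414: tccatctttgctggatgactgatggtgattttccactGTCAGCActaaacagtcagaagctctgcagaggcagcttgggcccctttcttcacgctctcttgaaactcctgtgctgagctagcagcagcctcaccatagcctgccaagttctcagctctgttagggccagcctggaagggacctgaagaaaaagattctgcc
NEAT1, chr11:65422179-65422379: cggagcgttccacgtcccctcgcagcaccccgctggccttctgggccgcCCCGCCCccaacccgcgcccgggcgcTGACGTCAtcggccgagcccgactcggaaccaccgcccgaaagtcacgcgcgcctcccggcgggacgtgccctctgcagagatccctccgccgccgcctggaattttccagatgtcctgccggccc
NEAT1, chr11:65426269-65426469: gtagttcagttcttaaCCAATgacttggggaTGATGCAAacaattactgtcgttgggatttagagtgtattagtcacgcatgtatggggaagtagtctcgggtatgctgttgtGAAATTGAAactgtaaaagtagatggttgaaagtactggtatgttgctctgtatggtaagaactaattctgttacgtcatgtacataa

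The consensus letters searched were GAAANNGAA for IRF, TGATGNAA for the ATF4-CEBP composite site, TGCTGAC for MAF, CAGGTG for the TCF4 E-box, TGANTCA for AP-1, TGACGTCA for CRE, CCGGAAG for ETS, CCAAT for NFY, GGGCGGG for SP, GCGCATGCG for NRF1, AANATGGC for YY1 and TATAAA for the TATA box. Matches of different names may overlap, and a match describes the letters and not a bound factor. LINC00511 held an AP-1 match, ENSG00000254919 had NFY matches and ENSG00000230470 had a TATA box and E-boxes. ERC2-IT1 held E-boxes, and LINC00635 held matches to ATF4-CEBP, MAF and the E-box. ENSG00000225647 held none of the 12. ENSG00000288597 held a MAF match. The shared NEAT1 region held CRE and SP matches, and the DMSO-only NEAT1 region held NFY, ATF4-CEBP and IRF matches.

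Over all 2807 lncRNA start regions, an IRF match stood in 10.1%, against 5.65% of protein-coding promoters and 17% of distal regions. For the E-box these shares were 26.8%, 20.2% and 30.6%, and for AP-1 they were 10.7%, 4.51% and 12.5%. ATF4-CEBP matches stood in 2.85% of lncRNA start regions, 1.46% of promoters and 4.64% of distal regions, and MAF matches in 4.77%, 3.15% and 6.09%. Letters typical of CpG-rich promoters ran the other way. SP matches stood in 18.7% of lncRNA start regions, 41.2% of promoters and 3.6% of distal regions, and ETS matches in 5.99%, 11.4% and 1.58%. NFY matches stood in 21.6%, 25.2% and 20.3%, CRE in 1.6%, 2.06% and 0.272%, NRF1 in 1.35%, 1.87% and 0.0888%, YY1 in 2.74%, 5.06% and 2.7%, and the TATA box in 5.24%, 2.76% and 8.65%. For each of the 12 motifs the share at lncRNA start regions lay between those of the other classes.

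The 6 lists differed before any result was drawn. They held 58563 to 79020 peaks on chromosomes 1 to 22, X and Y and gave no read totals, so depth is unknown. CB-6644 replicate 2 held peaks as short as 65 bp, DMSO replicate 1 as short as 91 bp, and the shortest peaks of the other 4 lists measured 131 to 152 bp. The pair with the shortest peaks, 1 from each group, is called the short-fragment libraries, and results are given with and without them where they differ. The names short-fragment, long-fragment and fragment set rest on peak length alone. Fragment lengths were not measured, and the cause of the difference is not known. All of 7 plasma cell genes looked up (SDC1, TNFRSF17, XBP1, IRF4, PRDM1, CD38 and SLAMF7) had a peak at their start in all 6 libraries. Of 6 genes of other cell types, CD3D, CD3E and LYZ had none in any library and CD14, HBB and EPCAM had one in all 6, so an open start did not by itself mark a cell type.

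The lncRNA start regions belonged to 2675 of 18866 lncRNA genes, or 14.2%. A further 2878 genes (15.3%) were open only where a protein-coding TSS lay in the same region, and 13313 (70.6%) had no reproducible region at any start. A single lncRNA gene had its window in 2544 of the regions, and 263 regions held windows of 2 or more genes. At most 4 genes shared a region, which was the case at GLUD1P3 on chr10:73729946-73730848. Regions at MIRLET7BHG, the host of let-7 microRNAs, and at ENSG00000288062 on chr9:92807824-92809439 came next. In the other direction 323 genes had 2 or more regions and 57 had 3 or more. LINC00511, an RNA raised in several tumour types, had the most with 11, and MIR4435-2HG had 7.

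Most of these genes are little known. The nearest lncRNA had only an Ensembl identifier at 1567 regions, a LINC name at 568, an antisense name at 292, the name of a small RNA host at 72 and that of a divergent transcript at 22. The regions lay outside coding genes in 2234 cases, inside a coding gene on the opposite strand in 425 and on the same strand in 136. The strongest summit was a median of 217 bp from the nearest lncRNA TSS, and in 1016 regions (36.2%) it was within 100 bp.

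In size and base composition the lncRNA start regions stood between the other classes. Their median length was 499 bp and median GC content 56.2%, against 713.5 bp and 67.2% for promoters and 345 bp and 46.8% for distal regions. The 201 bases at the summit held a median of 6 CpG in lncRNA start regions, 18 in promoters and 2 in distal regions. Within the class, 226 regions had lncRNA start sites on both strands. These had a GC content of 64.7% and 85% of them were called in all 6 libraries, against 55.2% and 67.4% for the 2581 regions with start sites on 1 strand.

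The strongest lncRNA start regions were open in every library at ranks above nearly all peaks. A rank here is the percentile of a peak's -log10 p within its own list, with 100 the strongest. ZNF767P on chr7:149624126-149625129, a zinc finger pseudogene annotated as lncRNA, had ranks of 99.9, 99.9 and 99.8 in CB-6644 and 99.96, 99.9 and 99.8 in DMSO. LINC01003, MIRLET7A1HG (a host of let-7 microRNAs), ENSG00000290600 and PCGF3-AS1 followed, and none of these had a rank under 99.5 in any library. The log2 differences of these 5 regions lay between 0.06 and 0.16, and none passed the test described with the values of called regions.

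The number of libraries with a peak was what chose the regions, so these counts are a description with no test. All 6 libraries had a peak in 1932 of the 2807 lncRNA start regions (68.8%), where 59.3% of all reproducible regions, 83.5% of promoters and 50.4% of distal regions did. Regions with a peak in all 3 DMSO libraries and no CB-6644 library numbered 83 (2.96%), where 5.66% of all reproducible regions were of this kind, 1.49% of promoters and 7.25% of distal regions. The reverse kind, called in CB-6644 only, numbered 12 (0.428%), against 0.737% of all reproducible regions. With the 4 long-fragment libraries alone, where 2 of 2 against 0 of 2 sufficed, these counts were 172 and 41, or 6.62% and 1.58% of 2600 regions, where 11.3% and 2.44% of all regions were of these kinds. When each list was also cut to its strongest peaks, as many as the shortest list holds, they were 86 and 100, or 3.51% and 4.08% against 6.95% and 5.56% of all regions. In these 4 libraries DMSO-only regions thus outnumbered CB-6644-only ones with the full lists and not with lists of equal length. With all 6 lists cut in this way 49 regions (1.92%) were DMSO-only and 28 (1.1%) CB-6644-only, against 2.96% and 1.69% of all regions. These counts at equal list lengths were chosen partly after the data were seen.

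**Figure D1:**
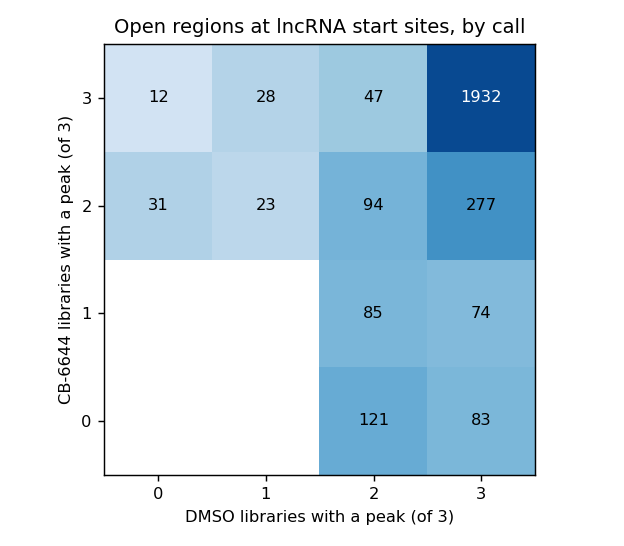
Number of lncRNA start regions by how many of 3 DMSO libraries (horizontal axis) and of 3 CB-6644 libraries (vertical axis) had a peak in them. The square for all 6 libraries holds 1932 regions, the DMSO-only square (3 and 0) holds 83 and the CB-6644-only square (0 and 3) holds 12.

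At the edge of the rule, 260 regions had peaks in 2 libraries of a group and at most 1 of the other, and their highest rank had a median of 16.2. Just outside it were 135 regions with 1 library of each group, with a median highest rank of 22.1, and 357 regions of a single library, with 7.17. Over all 2807 regions the median was 67.4. Along the other border, 108 regions reached a start site window only between 900 and 1000 bp from the TSS and 105 regions lay between 1000 and 1100 bp, and 55 and 56 of them were called in all 6 libraries.

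Calls followed base composition. In lncRNA start regions of under 40% GC, 33.6% were called in all 6 libraries and 13.4% in DMSO only. In those of 40 to 50% GC the shares were 53.7% and 5.89%, and from 50 to 60% they were 69.9% and 1.59%. From 60 to 70% they were 80.2% and 0.739%, and above 70% GC 86.7% and 0.46%. Promoters and distal regions of the same GC class moved the same way. In the class under 40% GC the DMSO-only share was 13.4% in lncRNA start regions, 13.7% in promoters and 16.3% in distal regions, closer together than their overall shares. The DMSO-only lncRNA start regions had a median GC of 44.8%, a length of 280 bp and a summit 430 bp from the TSS. Those called in all 6 libraries had 59.2%, 592.5 bp and 162 bp. The part of GC or of peak strength in the calls was not tested.

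**Figure D2:**
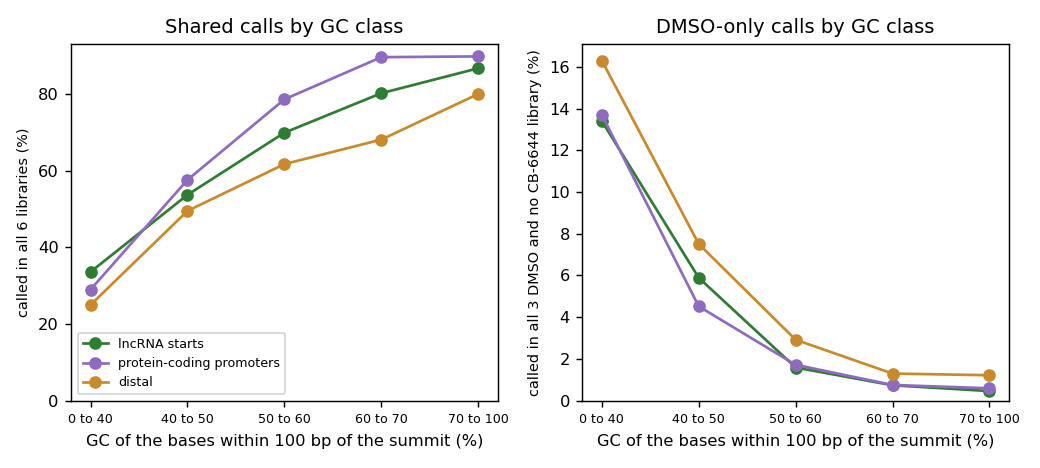
Share of regions called in all 6 libraries (left) and in DMSO only (right) by GC content of the 201 bases at the summit, for lncRNA start regions, protein-coding promoters and distal regions. In lncRNA start regions the shared calls go from 33.6% to 86.7% and the DMSO-only calls from 13.4% to 0.46% as GC rises, and the other classes follow the same slope.

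The DMSO-only regions with the highest ranks were named by a fixed rule, the highest of the lowest rank over the calling libraries. LINC00824, at chr8:128428096-128428587 in the gene-poor stretch beyond MYC, had ranks of 72.7, 72.9 and 79.9 in DMSO replicates 1 to 3, and its nearest protein-coding TSS, that of MYC, was 689 kb away. ENSG00000289139 on chr4:184859981-184860424 had 64.2, 66.6 and 63.6 and lay 33.4 kb from ACSL1, which activates long-chain fatty acids. ENSG00000225647 on chr7:108605863-108606394 had 57.4, 66.2 and 73.1 and lay 34.3 kb from DNAJB9, a co-chaperone of the endoplasmic reticulum. These 3 thus ranked above the middle of each control list and were absent from all CB-6644 lists. LINC02608, 47.6 kb from the phosphatase subunit gene PPP2R5A, had 55.1, 59.1 and 62.1. CPS1-IT1, inside the urea cycle gene CPS1, had 54.0, 46.0 and 45.3. The other regions named by the rule were at ENSG00000227475, LINC02672 and ENSG00000286044, with ranks from 43.7 to 53.01. Over all 83 DMSO-only regions, IRF matches stood in 16.9% and ATF4-CEBP matches in 9.64%, against 8.59% and 2.23% of the 1932 regions called in all 6 libraries. Both motifs were commoner at low GC, where IRF stood in 30.9% and ATF4-CEBP in 6.71% of all lncRNA start regions under 40% GC. The DMSO-only regions had a median GC of 44.8%. In all lncRNA start regions of 40 to 50% GC, IRF stood in 17.7% and ATF4-CEBP in 5.07%. AP-1 (15.7% against 10.2%) and the TATA box (10.8% against 4.3%) were also commoner in DMSO-only than in shared regions, and SP was rarer (7.23% against 22.4%). The part of GC in these shares was not tested.

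Among the 12 CB-6644-only regions 1 stood out by rank. ENSG00000288597 on chrX:103769158-103769425 had ranks of 40.6, 70.7 and 40.8 in CB-6644 replicates 1 to 3. ENSG00000286087 on chr20:12936132-12936313 had 23.2, 32.5 and 27.3, and its summit lay 17 bp from the annotated start. ENSG00000286863, 1.21 kb from NEGR1, had 30.0, 48.0 and 22.9, and RORA-AS1, antisense within the nuclear receptor gene RORA, had 33.5, 32.5 and 18.3. ENSG00000288935, LINC00603, ENSG00000254460 and ENSG00000232444 were the others named by the rule, with ranks from 6.27 to 42.9.

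The share of all peaks that lay at lncRNA starts does not use the reproducibility rule and was compared between libraries. It was 4.203%, 4.11% and 4.32% in CB-6644 replicates 1 to 3 and 3.99%, 3.996% and 4.03% in DMSO, with 2496 to 2948 and 2645 to 3153 such peaks. The groups did not overlap, and the means of 4.21% ± 0.105 and 4.01% ± 0.0238 (SD, n = 3 each) differed by 0.202 percentage points (exact two-sided permutation p = 0.1, the smallest that 3 against 3 libraries allow). With equal numbers of top peaks the shares were 4.201%, 4.22% and 4.32% against 4.22%, 4.12% and 4.13%, the groups overlapped and the difference was 0.0905 percentage points (exact permutation p = 0.2). The size of the difference thus moved with the length of the lists.

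The mean rank of peaks at lncRNA starts within each list was 53.5, 53.1 and 53.3 in CB-6644 and 54.3, 54.5 and 54.7 in DMSO. The means, 53.3 ± 0.221 and 54.5 ± 0.213 (SD, n = 3 each), differed by -1.19 (exact permutation p = 0.1, again the smallest possible), and every CB-6644 library lay under every DMSO library. With equal numbers of top peaks the difference was -1.09 (exact permutation p = 0.1). When only the outermost annotated start of each gene counted, the difference was -1.23 (exact permutation p = 0.2). The groups overlapped there, with 56.6 in CB-6644 replicate 3 and 56.4 in DMSO replicate 1.

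For regions called in all 6 libraries, the fold enrichment of the strongest peak over local background was compared on a log2 scale after quantile normalisation over all 42089 such regions. Of the 1932 lncRNA start regions among them, limma called 6 lower and 7 higher after CB-6644 at an adjusted p under 0.05 (Benjamini-Hochberg over all 42089), or 0.311% and 0.362%. The shares over all regions were 0.418% lower and 0.321% higher, near those of the lncRNA start regions. By class they were 0.0617% and 0.0754% of promoters and 0.63% and 0.458% of distal regions, so the lncRNA start regions lay between these classes. The values of both groups did not overlap in 199 lncRNA start regions that were lower (10.3%) and in 192 that were higher (9.94%), against 10.7% and 10.7% of all regions. The median log2 difference was 0.02, as over all regions, the central 95% of differences ran from -0.62 to 0.56, and the median standard error was 0.17. A difference of at least 1 on the log2 scale was seen in 17 regions (0.88%), against 0.969% of all regions.

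**Figure D3:**
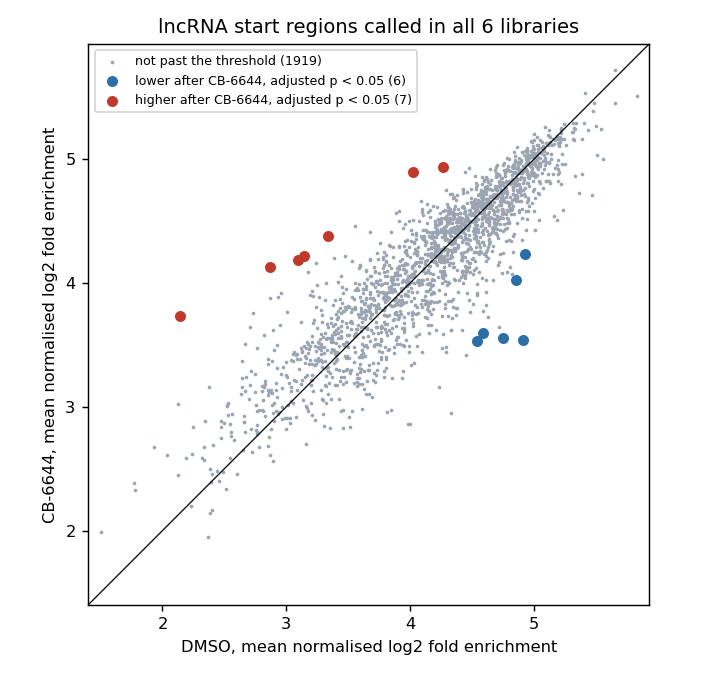
Mean normalised log2 fold enrichment in DMSO (horizontal axis) and CB-6644 (vertical axis) of the 1932 lncRNA start regions called in all 6 libraries, 1 point per region, with the line of equal values. Blue points are the 6 regions lower and red points the 7 regions higher after CB-6644 at a limma adjusted p under 0.05, and most points lie along the line.

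With all 6 libraries, the shift of lncRNA start regions as a class against promoters or distal regions was not larger than the spread between libraries. Their mean normalised log2 fold enrichment minus that of promoters was -0.0171, -0.217 and -0.0147 in CB-6644 replicates 1 to 3 and -0.0677, 0.0173 and 0.021 in DMSO. The group means of -0.0829 ± 0.116 and -0.00977 ± 0.0502 (SD, n = 3 each) differed by -0.0731 (exact permutation p = 0.5). Minus that of distal regions it was 0.0236, 0.182 and 0.0487 against 0.0969, 0.0197 and 0.0037, a difference of 0.0446 (exact permutation p = 0.5). The short-fragment libraries had the lowest value of their group in the former and the highest in the latter, and without CB-6644 replicate 2 the differences were -0.00489 and 0.0116. In the 4 long-fragment libraries alone the values against promoters were -0.0523 and -0.0479 in CB-6644 and -0.019 and -0.00779 in DMSO, and against distal regions 0.0444 and 0.071 in CB-6644 and 0.0314 and 0.0115 in DMSO. The groups did not overlap there, and the differences were -0.0367 and 0.0363 (exact permutation p = 0.333 for each, the smallest that 2 against 2 libraries allow).

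The 13 called regions rested on which libraries and terms entered the fit. They were picked on the same values that are given for them below, so a lack of overlap between their groups is no further support. In the fits that left out 1 library, each of the 13 passed only in the one without CB-6644 replicate 2. With the fragment set as a term limma called 82 lncRNA start regions lower (4.24%) and 71 higher (3.67%), where it called 6.1% and 4.22% of all regions. With the 4 long-fragment libraries alone it called 55 and 53 of 2173 (2.53% and 2.44%), against 4.33% and 3.01% of all regions, and with replicate number as a block or scaling by the library median it called 0 and 0. With normal scores of the ranks in place of fold enrichment, 12 of the 13 passed. None of the 13 changed direction in any of these fits. When only the outermost annotated start of each gene counted, the regions at MAILR, CASC19, LINC00511, LINC00635 and NUDT16-DT were not lncRNA start regions.

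Among the regions that fell after CB-6644, MAILR had the largest difference. MAILR is an lncRNA named for interferon regulation in macrophages. The region at an annotated transcript start of this gene, chr8:102937762-102938264, had normalised fold enrichments of 10.3, 11.4 and 13.3 in CB-6644 and 32, 33 and 25.8 in DMSO. The log2 difference was -1.37 ± 0.16 (SE, limma adjusted p = 0.0288). ENSG00000254919, on chr11:35917675-35918036 between coding genes, had 12.1, 8.34 and 16 in CB-6644 and 25.4, 29.5 and 26 in DMSO. Its log2 difference was -1.20 ± 0.22 (limma adjusted p = 0.0472). At both regions every CB-6644 library lay far under every DMSO library. With equal numbers of top peaks MAILR still passed (limma adjusted p = 0.0289), while ENSG00000254919 was not called in all 6 libraries.

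CASC19 is transcribed in the gene-poor interval that precedes MYC, and its region at chr8:127180175-127180410 had 10.9, 12.3 and 11.7 in CB-6644 and 23.3, 22 and 24.7 in DMSO. The log2 difference was -1.01 ± 0.15 (limma adjusted p = 0.032), and the libraries of each group lay close together. ENSG00000230470, within C1orf21 on chr1:184407888-184408213, had 20.2, 15.3 and 13.9 against 26.4, 30.9 and 29.7, a log2 difference of -0.83 (limma adjusted p = 0.0472). ENSG00000277837, 8.99 kb from the homeobox gene ONECUT2 at chr18:57426093-57426522, had 17.9, 18.1 and 20.7 against 30.1, 30.9 and 30.4, a log2 difference of -0.69 (limma adjusted p = 0.0325). In these regions too the groups did not overlap. With equal numbers of top peaks ENSG00000230470 did not pass (limma adjusted p = 0.0558). CASC19 and ENSG00000277837 passed there (limma adjusted p = 0.0319 and 0.0339).

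Of the 8 LINC00511 regions called in all 6 libraries 1 passed. That region, at chr17:72466205-72466699, had 14.4, 9.76 and 12.5 in CB-6644 and 24.4, 25.1 and 23 in DMSO, a log2 difference of -0.998 ± 0.17 (limma adjusted p = 0.0421). Its rank was 40.2, 23.5 and 31.2 in CB-6644 and 77.4, 75.7 and 70.9 in DMSO. With equal numbers of top peaks that region did not pass (limma adjusted p = 0.0642). The 7 other LINC00511 regions called in all 6 libraries had log2 differences from -0.17 to 0.46, and none of them passed, with 0.398 as the smallest limma adjusted p. In the 3 LINC00511 regions that some library lacked, all 3 DMSO libraries had a peak and 1 or 2 CB-6644 libraries did. Whether the region that passed differs from its neighbours was not tested.

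The largest difference among regions that rose was at ERC2-IT1, a transcript within an intron of ERC2, which encodes a scaffold protein of the presynaptic active zone. The region at chr3:55658475-55659143 had normalised fold enrichments of 11.3, 20.5 and 10.1 in CB-6644 and 4.43, 4.83 and 3.99 in DMSO. The log2 difference was 1.59 ± 0.28 (limma adjusted p = 0.043). The highest value came from CB-6644 replicate 2, a short-fragment library, and the log2 difference was at least 1.36 in each fit that left out 1 library. ENSG00000286985, 45.2 kb from the heart and endoderm factor gene GATA4 at chr8:11631586-11631893, had 15.7, 17.4 and 19.6 against 6.88, 9.60 and 5.93, a log2 difference of 1.26 (limma adjusted p = 0.0456). Both regions had low ranks in DMSO, with 11.2, 14.6 and 1.93 at ERC2-IT1 and 12.7, 19.3 and 1.44 at ENSG00000286985. With equal numbers of top peaks neither region was called in all 6 libraries.

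ENSG00000253824 on chr8:100463417-100464112 had 20.1, 17.3 and 17.2 in CB-6644 and 7.56, 8.65 and 9.54 in DMSO, a log2 difference of 1.09 (limma adjusted p = 0.0411). ENSG00000257228, antisense within the ubiquitin ligase gene PDZRN4 on chr12:41473523-41473779, had 20.1, 17.8 and 18 against 8.68, 9.52 and 8.41, a log2 difference of 1.07 (limma adjusted p = 0.0365). NUDT16-DT, the divergent partner of a nucleotide hydrolase gene, had its region at chr3:131329837-131330169 with 23.5, 17.3 and 22.1 against 10.2, 10.1 and 10.05, a log2 difference of 1.04 (limma adjusted p = 0.0407). This region was not at the promoter shared with NUDT16. It lay inside NEK11 on the opposite strand, 51.7 kb from the TSS of NUDT16, with its summit 880 bp from an annotated transcript start. The DMSO libraries of NUDT16-DT were nearly equal, and no value of either group crossed into the other in these 3 regions. Ranks in DMSO were 21.2, 23.8 and 23.2 at ENSG00000253824, 25.8, 27.3 and 15.9 at ENSG00000257228 and 30.4, 21.2 and 16.6 at NUDT16-DT. With equal numbers of top peaks NUDT16-DT passed (limma adjusted p = 0.0456), while ENSG00000253824 and ENSG00000257228 were not called in all 6 libraries.

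The smallest difference among the regions that rose was at a stronger peak. LINC00635 on chr3:107848579-107848931, 50.1 kb from BBX, had 32.3, 29.4 and 30.4 in CB-6644 and 19, 18 and 20.9 in DMSO, a log2 difference of 0.67 (limma adjusted p = 0.0348).

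**Figure D4:**
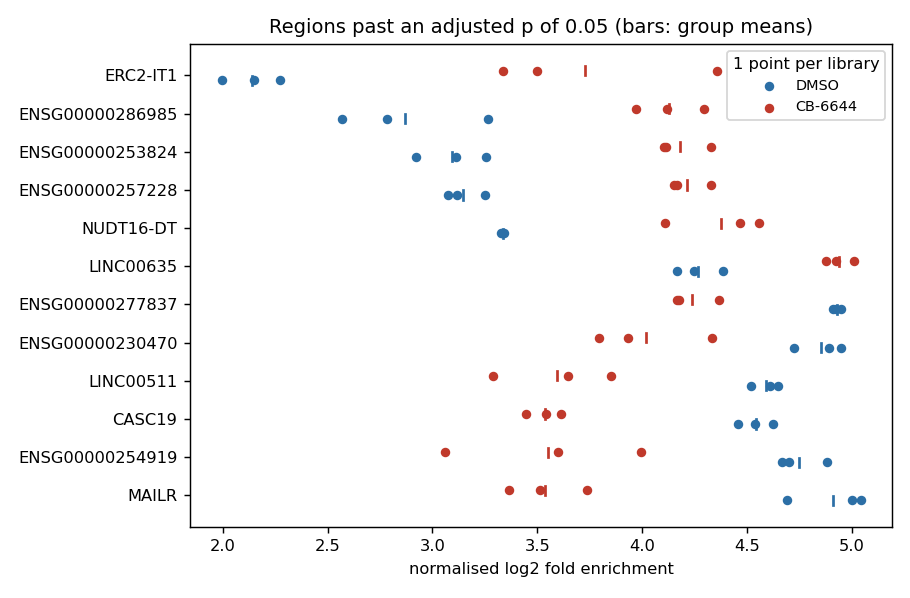
Normalised log2 fold enrichment of 12 of the 13 lncRNA start regions past a limma adjusted p of 0.05, 1 point per library (blue DMSO, red CB-6644) with short bars at the group means. In every region shown all 3 CB-6644 points lie on 1 side of all 3 DMSO points, with the CB-6644 points of ERC2-IT1 the most spread. The regions were picked by a fit to these same values.

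Well-known lncRNAs were taken in 6 lists, of which 80 genes in all had an lncRNA start region, with 134 regions among them. Of these, 100 were called in all 6 libraries, 3 in DMSO only and 0 in CB-6644 only, and limma called none higher or lower (smallest adjusted p = 0.111). Over all reproducible regions 59.3% were called in all 6 libraries, 5.66% in DMSO only and 0.737% in CB-6644 only. Limma called 0.418% of all regions lower and 0.321% higher, so its 0 calls among the 100 lie near those shares. At an unadjusted p under 0.05, 7 of the 100 were higher and 0 lower, where 6.35% of all regions were higher and 8.09% lower. Their median log2 difference was 0.11, against 0.02 over all regions, and it was 0.03 with normal scores of the ranks. With normal scores 30 of the 100 had the opposite sign, and the medians of the snoRNA host genes (0.04) and of the interferon and inflammation list (0.10) became -0.03 and -0.09, so the direction at these regions and lists depended on the scale.

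LncRNAs known from B cells, plasma cells and myeloma had a start region at 23 of 25 annotated genes. The 38 regions included 28 called in all 6 libraries and no region called in 1 group only. Of all regions, 5.66% were DMSO-only and 0.737% CB-6644-only. The log2 differences of the 28 ran from -0.37 to 0.57 around a median of 0.14. LINC02397 had 0.57 and LINC01857 had 0.48 (limma adjusted p = 0.202). At LINC01857, on chr2:207662193-207662479, the normalised fold enrichment was 24.9, 18.5 and 25.5 in CB-6644 and 17.9, 15.8 and 15.3 in DMSO. PVT1, the neighbour of MYC that is often rearranged in myeloma, had 5 regions, 4 of them in all 6 libraries with log2 differences from -0.11 to 0.37. LINC00461, transcribed near MEF2C, also had 5, from -0.04 to 0.25 in the 4 called throughout.

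CYTOR had 4 regions in this list, DLEU2 had 3, and PCAT1, TCL6 and LINC01215 had 2 each. Single regions called in all 6 libraries were at DLEU1 (shared with DLEU2), LINC00926, LINC00582, LINC00158, LINC01480, LINC01781, LINC00494, PCED1B-AS1, MIR155HG and LINC02384, with log2 differences from -0.37 to 0.28. CDKN2B-AS1, antisense to the cell cycle inhibitor gene CDKN2B, was called in 2 CB-6644 libraries at ranks of 22.1 and 6.27 and in DMSO at 59.2, 51.1 and 43.95. LINC02362, LINC00861 and LINC00996 were likewise missing from 1 CB-6644 library. CYTOR had 1 region at a rank of 1.92 in CB-6644 replicate 2 against 72.1 and 53.3 in the other CB-6644 libraries, so its log2 difference of 0.47 carried an SE of 0.58.

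Nuclear lncRNAs and those that act on gene dosage had regions at 13 of 21 annotated genes, and a further 4 were open only together with a protein-coding TSS. MALAT1, an abundant RNA of nuclear speckles, had a region at chr11:65497149-65497957 with normalised fold enrichments of 20.8, 22 and 19.8 in CB-6644 and 18.3, 16.8 and 16.8 in DMSO, a log2 difference of 0.27 (limma adjusted p = 0.382). NORAD, which binds Pumilio proteins, had 0.23, CRNDE 0.31, TERC (the template RNA of telomerase) 0.24, KCNQ1OT1 0.09, JPX -0.09, FTX 0.01 and FIRRE 0.18. Of the 4 MIAT regions, that at chr22:26648000-26648422 had 22.3, 27.8 and 24.7 against 18.7, 16.3 and 17.7, a log2 difference of 0.50 (limma adjusted p = 0.111), and that at chr22:26645372-26645600 had -0.36 (limma adjusted p = 0.429). The groups did not overlap at either MIAT region or at MALAT1, and none of them passed. Over all regions called in all 6 libraries, the groups did not overlap in 10.7% that were lower and in 10.7% that were higher.

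NEAT1, the scaffold RNA of paraspeckles, had 3 regions that differed in their calls. The region at chr11:65422127-65422485 was called in all 6 libraries, with normalised fold enrichments of 3.03, 5.25 and 3.96 in CB-6644 and 3.09, 2.89 and 2.54 in DMSO, and a log2 difference of 0.49 (limma adjusted p = 0.337). The region at chr11:65422790-65423177, with its summit 15 bp from an annotated start, had a peak in CB-6644 replicate 3 only at a rank of 11.4 and in DMSO at 52.9, 38.01 and 38.9. The region at chr11:65426292-65426491, the DMSO-only one shown among the sequences, had ranks of 32.2, 37.7 and 22.8 in DMSO and no peak in CB-6644. The 3 NEAT1 regions thus did not share a pattern of calls.

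CHASERR, which restrains its neighbour CHD2, had a DMSO-only region at chr15:92818807-92819048, with ranks of 16.9, 25.3 and 29.6, beside 2 regions called in all 6 libraries. The nearer of these, at chr15:92820292-92820771, had 24.8, 27.3 and 27.1 in CB-6644 and 20.3, 20.9 and 19.6 in DMSO, a log2 difference of 0.38 (limma adjusted p = 0.128). HOTAIR, a HOX cluster RNA, was called in 2 DMSO libraries and no CB-6644 library. LINC-PINT had 3 regions called throughout, 1 of them shared with LINC00513, and another at chr7:131108678-131108824 called in 2 CB-6644 libraries at ranks of 23.2 and 23.7 and in no DMSO library.

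Host genes of microRNAs had regions at 19 of 28 genes, and 1 further gene was open only together with a protein-coding TSS. The regions numbered 42, with 30 of them in all 6 libraries, a median log2 difference of 0.12 and a smallest limma adjusted p of 0.362. MIR17HG, the host of an oncogenic microRNA cluster, had 2 regions with log2 differences of 0.22 and 0.12. MIR155HG, whose microRNA is induced in activated B cells, had -0.23, and MIR142HG, a haematopoietic host gene, had 0.38. All 4 regions of MIR29B2CHG were called throughout, from 0.12 to 0.44, while MIR99AHG had -0.07 and -0.43. MIR4435-2HG had 7 regions of which 2 were called throughout, and the one at chr2:111478879-111479343 was DMSO-only with ranks of 40.2, 24.1 and 31.8. MIR100HG, MIR34AHG, MIR210HG, MIR3142HG, MIR193BHG, MIR9-1HG, MIRLET7BHG, MIR646HG, MIR3681HG and MIR1915HG each had at least 1 region in all 6 libraries, with log2 differences from -0.19 to 0.42. MIR181A1HG and MIR223HG were each missing from 1 CB-6644 library.

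Host genes of snoRNAs are highly transcribed, and none of their starts passed the test. Regions stood at 18 of 28 genes, and a further 10 genes were open only together with a protein-coding TSS. All but 1 of the 19 regions were called in all 6 libraries, with a median log2 difference of 0.04. DANCR had the strongest, with ranks of 99.7, 99.3 and 99.6 in CB-6644 and 99.8, 99.4 and 99.7 in DMSO. SNHG14, the imprinted transcript that runs antisense to UBE3A, was the exception, with a region missing from 3 libraries. Its neighbouring region at chr15:25416588-25417089 had 16.3, 7.90 and 11.5 in CB-6644 against 5.41, 5.81 and 8.09 in DMSO. The log2 difference of 0.85 did not pass (limma adjusted p = 0.217). That region lay inside UBE3A, 3.84 kb from the UBE3A TSS, with its summit 1042 bp from the nearest annotated SNHG14 transcript start. Its ranks were 48.6, 13.8 and 30.4 in CB-6644 and 5.23, 6.86 and 15.8 in DMSO. SNHG6, SNHG7, SNHG8, SNHG11, SNHG12, SNHG15, SNHG16, SNHG17, SNHG20, SNHG21, SNHG25, SNHG26, SNHG29, SNHG30, SNHG32 and EPB41L4A-AS1 lay between -0.28 and 0.19.

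Interferon and inflammation lncRNAs had regions at 10 of 22 annotated genes, and a further 6 genes were open only together with a protein-coding TSS. Of the 15 regions, 12 were called in all 6 libraries, and the median log2 difference was 0.10. IRF1-AS1, antisense at the interferon factor gene IRF1, had normalised fold enrichments of 8.74, 14.4 and 8.80 in CB-6644 and 6.31, 6.27 and 6.19 in DMSO, a log2 difference of 0.72 (limma adjusted p = 0.202). LUCAT1 had 0.07 and 0.34, HCP5 -0.05, LINC00513 0.28 and IFNG-AS1 0.11. MIR3142HG and LINC00910 had 2 regions each, with log2 differences from -0.10 to 0.11, and LINC02574 was missing from 1 CB-6644 library.

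The list of p53-response lncRNAs had regions at 6 of 13 annotated genes, and a further 4 were open only together with a protein-coding TSS. Of its 19 regions, 12 were called throughout with a median log2 difference of 0.18. It shares LINC-PINT, NEAT1, PVT1 and MIR34AHG with other lists. MIR34AHG, the host of a microRNA induced by p53, had -0.01, and PCBP1-AS1 had 5 regions of which the 3 called throughout lay between -0.11 and 0.26. LINC02454 was called in 1 CB-6644 and 3 DMSO libraries.

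**Figure D5:**
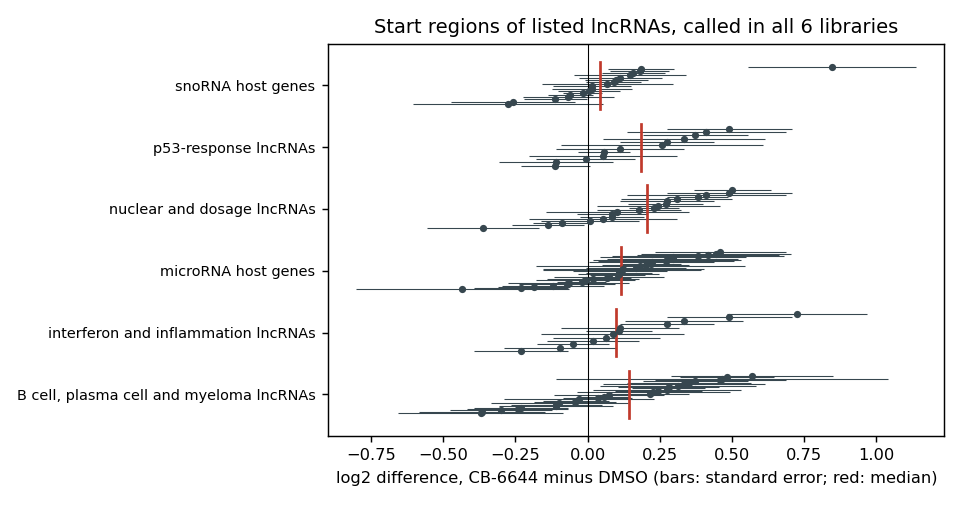
Log2 difference in normalised fold enrichment, CB-6644 minus DMSO, of the start regions of listed lncRNAs that were called in all 6 libraries, 1 point per region with its standard error and a red bar at the median of each list. The medians lie between 0.04 and 0.20 (between -0.09 and 0.06 with normal scores of the ranks), the highest point is SNHG14 at 0.85, and none of the regions passed an adjusted p of 0.05.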

How the data were processed

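The data were peak lists of 6 Omni-ATAC libraries of MM.1S cells, 3 with CB-6644 and 3 with DMSO, grouped by their labels. Per the labels, the submitters' processing notes name hg38, Bowtie2 2.4.2 and MACS3 3.0, and the authors called peaks on each library separately. Caller settings and read filters are not given in the sources used here. The deposited fold enrichment is the ratio of pile-up to local background from the authors' peak caller, unscaled between libraries. The -log10 p-value and -log10 q-value of each summit in the deposited lists are also the authors'. Read totals are not in the lists, so depth is unknown and the authors' edgeR test on counts could not be made. The lowest -log10 q ran from 3.01 to 3.33, and 107 to 338 peaks per list on other sequences were left out.

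TSS were those of all transcripts of 18866 lncRNA and 20033 protein-coding genes of GENCODE release 44. The strongest peak of each library stood for a region. Regions called in all 6 libraries were quantile-normalised as log2 fold enrichment and fitted with limma 3.58.1 (R 4.3.3, trended prior, threshold of 0.05 on Benjamini-Hochberg adjusted p). The fit was tested on simulated data first. Means over libraries were tested by permutation (exact, two-sided), whose smallest p is 0.1 for 3 against 3. Motifs were matched in 201 bases of hg38 read with pysam 0.24.0 and samtools 1.23.1. Other steps used Python 3.11.15 with pandas 2.3.3, scipy 1.17.1, numpy 2.4.6 and, for figures, matplotlib 3.10.9.

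Named were the 5 strongest regions, up to 8 regions called in each group only, up to 8 in each direction past the limma threshold, the 3 regions with the most lncRNA genes and all list genes with a region. Of the 13 regions past the threshold, 1 is not reported here by name. A region was named by the lncRNA TSS nearest its summit. The regions, lists and tests were chosen with earlier results of these data known. The alternatives covered q, list length, fragment set, window, TSS definition, scaling, missing calls, the replicate block and each library left out. Protein-coding transcripts only, and the 4 long-fragment libraries at equal list length, were added after seeing the data.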

Additional observations from a re-analysis of the deposited data

How the results depend on the processing

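Same-numbered libraries did not deviate together (correlations of -0.477, -0.332 and 0.326, with 1 of 6 libraries closest to its own number), so the labels' numbers were not taken as pairs. With the replicate block limma called 0 lncRNA start regions lower and 0 higher, against 6 and 7 without it, and the share of peaks at lncRNA starts kept its difference of 0.202 percentage points (exact sign-flip p = 0.25, the smallest that 3 pairs allow). The fragment set as a term gave 82 lower and 71 higher (4.24% and 3.67%, against 6.1% and 4.22% of all regions). Normal scores gave 57 and 50 (2.95% and 2.59%, against 3.74% and 3.48%). Median scaling gave 0 and 0, and over all regions it and the block also called 0. Equal numbers of top peaks gave 3 and 3 (0.171% each, against 0.284% and 0.183%). The 4 long-fragment libraries gave 55 and 53 (2.53% and 2.44%, against 4.33% and 3.01%). At equal list length these 4 gave 57 and 50 (2.75% and 2.41%, against 4.72% and 3.07%). Leaving out each library gave 0 to 32 lower and 0 to 26 higher, and only the fit without CB-6644 replicate 2 called any. That fit called 1.51% lower and 1.23% higher, against 2.42% and 1.64% of all regions. A window of 500 bp gave 4 higher (0.239%, against 0.321% of all regions). At an unadjusted p under 0.05 the block left 95 lower and 73 higher (4.92% and 3.78%, against 6.83% and 4.41% of all regions). Median scaling left 89 and 107 there (4.61% and 5.54%, against 6.56% and 5.76%).

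DMSO-only regions numbered 49 with equal numbers of top peaks, 172 in the 4 long-fragment libraries, 204 where 2 of 3 against 0 of 3 sufficed and 100 to 143 without each library, against 83. CB-6644-only regions numbered 28, 41, 43 and 16 to 28 in these settings, 6 with a window of 500 bp and 100 in the 4 long-fragment libraries at equal list length, against 12. Of all 70969 regions, 8070 and 1589 met the 2 of 3 rule for DMSO and CB-6644. Without each library 3.61% to 5.26% of lncRNA start regions were DMSO-only, against 7.05% to 8.84% of all regions. For CB-6644-only these shares were 0.607% to 1.05% against 0.964% to 1.52%, and with the 500 bp window 0.257% against 0.737%. Leaving out a library loosens the rule by 1 call. The causes of the other changes were not tested.

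The 13 called regions, the share, the mean rank and the shifts against promoters and distal regions kept their direction in the alternatives run. The median log2 difference of all lncRNA start regions went from 0.02 to -0.01 with normal scores and to -7.89e-05 without DMSO replicate 3, and the excess of DMSO-only over CB-6644-only regions turned round in the 4 long-fragment libraries at equal list length (86 against 100). Peak lists without read counts limit all comparisons, since a missing peak is not a measured 0 and 3 libraries a group cannot reach an exact p under 0.1.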
